A study of Mus musculus with 6 samples.

Results

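The genes described here are the 258 expressed long intergenic noncoding RNAs (lincRNAs) of mouse lung fibroblasts with and without depletion of calumenin. They were selected on their level: every gene whose deposited biotype was exactly lincRNA and whose mean over the 6 libraries was at least 1 FPKM (fragments per kilobase of gene length, scaled to sequencing depth). They were 258 of 5559 lincRNA genes (4.64%) and of 54532 genes in the table, while 46.7% of the 22046 protein-coding genes reached the same mean. Of the remaining lincRNA genes, 3440 had no read in any library and 1861 had reads but a lower mean. Of the 258, 218 reached 1 FPKM in both groups, 13 in the control group only and 27 in the calumenin-depleted group only, and those of a single group had to differ between the groups to be selected. The 3 genes just below the limit were Gm33699 (0.975 FPKM), AC154806.1 (0.995) and Gm45619 (0.996), and the 3 just above it were Gm16046 (1.01), Gm42743 (1.01) and C130071C03Rik (1.01).

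The cells were labelled mouse primary lung fibroblasts, and total RNA was sequenced from 3 libraries called NC and 3 called calumenin KD. The labels do not spell out NC, and a second label field calls the same libraries WT and KO, so whether calumenin was knocked down or knocked out is not settled by them. The stated purpose was to follow senescence and fibrosis signalling after loss of calumenin, a calcium-binding protein of the secretory pathway. No label says that libraries came from separate cultures or animals, so p-values measure the spread between these libraries, which may be technical. The sources used here do not give age, sex or strain.

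As a class, lincRNAs are transcribed and often spliced and polyadenylated like messenger RNAs, lie between protein-coding genes, and encode no known protein. Some act in the nucleus, where Malat1 sits in nuclear speckles and Neat1 builds paraspeckles. Others serve as precursors whose introns or exons release small nucleolar RNAs (snoRNAs) or microRNAs, and many are transcribed from the start region of a neighbouring coding gene in the opposite direction. Most have no known function, and of the 258, 163 carried a provisional Gm symbol and 55 a Rik symbol. Membership here rests on the deposited biotype alone, and whether each of the 258 is noncoding was not tested. Of them, 32 had a single exon. The nearest coding gene of at least 1 FPKM overlapped 22 members on the other strand and 6 on the same strand.

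Calu, the targeted gene, stood at 220, 227 and 225 FPKM in the NC libraries and at 14.6, 12.6 and 13.1 FPKM in the KD libraries, 16.7-fold lower (adjusted p = 1.3e-06). Depth was 15907164 to 18312888 reads per library, and a gene of 1 kb with no read could still have had 0.162 to 0.189 FPKM (3 reads, counting error only). Of 14 fibroblast markers 9 reached 1 FPKM. Lum and Tcf21 had no read in any library, and Dcn and Thy1 had 3 and 34 reads over the 6 libraries. Postn stood at 1.10 FPKM in NC and 0.0898 in KD. Of 8 leukocyte markers 2 reached 1 FPKM, of 6 smooth muscle and pericyte markers 1 did, and none of 8 epithelial and 6 endothelial markers did. The library KD1 stood apart from the other KD libraries, with 2.56% mitochondrial reads against 1.60% to 1.97% in the other 5, and it lay farthest from the KD median for 61.2% of all genes tested and for 126 of the 258 lincRNAs (48.8%).

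The start regions below belong to lincRNAs that differed between the groups, and 2 of them also hold the start of a coding gene on the other strand. They run from 250 bases before to 50 bases after the RefSeq start (GRCm38.p6), on the lincRNA's strand. Capitals mark matches on either strand to the letters GGGCGG (the GC box), CCAAT (the CCAAT box) and TGANTCA (the AP-1 site). Snhg18 lies at chr15:32244613-32244912 (minus strand), 2010320M18Rik at chr8:70776612-70776911 (plus), Lncenc1 at chr13:97434720-97435019 (plus) and Gm44507 at chr7:98415575-98415874 (minus).
Snhg18: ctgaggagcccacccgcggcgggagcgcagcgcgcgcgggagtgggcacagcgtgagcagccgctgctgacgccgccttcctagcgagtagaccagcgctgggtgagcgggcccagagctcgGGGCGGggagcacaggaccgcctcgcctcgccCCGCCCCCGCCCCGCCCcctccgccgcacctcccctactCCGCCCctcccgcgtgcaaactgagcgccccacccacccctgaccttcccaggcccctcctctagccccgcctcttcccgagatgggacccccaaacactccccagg
2010320M18Rik: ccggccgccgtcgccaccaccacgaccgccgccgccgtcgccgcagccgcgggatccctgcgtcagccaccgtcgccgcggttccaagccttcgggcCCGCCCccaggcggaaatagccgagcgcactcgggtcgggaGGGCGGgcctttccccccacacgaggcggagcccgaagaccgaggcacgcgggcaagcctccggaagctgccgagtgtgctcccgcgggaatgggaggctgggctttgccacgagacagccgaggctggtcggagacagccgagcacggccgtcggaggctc
Lncenc1: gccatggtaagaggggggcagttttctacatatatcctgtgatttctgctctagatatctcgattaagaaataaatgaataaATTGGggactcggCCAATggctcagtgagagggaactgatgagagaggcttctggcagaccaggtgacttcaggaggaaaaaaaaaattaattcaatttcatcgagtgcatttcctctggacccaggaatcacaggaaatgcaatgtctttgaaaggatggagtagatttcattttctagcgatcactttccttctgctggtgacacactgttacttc
Gm44507: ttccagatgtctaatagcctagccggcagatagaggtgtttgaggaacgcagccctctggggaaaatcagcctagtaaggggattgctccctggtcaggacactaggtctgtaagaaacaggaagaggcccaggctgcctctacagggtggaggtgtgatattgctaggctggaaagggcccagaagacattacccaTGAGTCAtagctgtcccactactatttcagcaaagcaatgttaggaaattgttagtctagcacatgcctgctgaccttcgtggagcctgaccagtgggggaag
The region of Snhg18, which rose, held 31 CpG dinucleotides and a run of GC boxes, and Sema5a, which encodes a semaphorin, starts 148 bases away on the other strand. That of 2010320M18Rik, which also rose, held 43 CpGs and 2 GC boxes, and Pik3r2, a regulatory subunit gene of phosphoinositide 3-kinase, starts 102 bases away on the other strand. Lncenc1 and Gm44507, which fell, had 4 and 3 CpGs, with 2 CCAAT boxes in the first and 1 AP-1 match, TGAGTCA, in the second. Of 32851 RefSeq promoters of this length, 35.7% held the GC box letters, 37.4% the CCAAT box and 7.81% the AP-1 site. Among 106 of the 258 lincRNAs with a RefSeq start at most 1000 bases from the deposited one (125 matched by symbol), the shares were 34.0%, 43.4% and 11.3%. The median CpG count was 8 over these 106 and 7 over all promoters. It was 34.5 in the 20 of them with a coding gene starting on the other strand within 1000 bases, and 6.5 in the others. These matches describe letters only and show no binding.

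LincRNA levels were low and dominated by a few genes. The median member stood at 2.17 FPKM (quartiles 1.44 and 4.96), against 9.80 FPKM for tested protein-coding genes, and 115 of the 258 lay under 2 FPKM while 64 reached 5, 30 reached 10 and 6 reached 50 FPKM. Their median gene length was 1470 bases, against 4390 for coding genes, so a typical member rested on 368 reads summed over the 6 libraries (range 23 to 63355). The 10 highest, in order of mean, were Gm47015 (124 FPKM), Gm42047 (103), Malat1 (90.4), Gm47223 (86.4), Gm26917 (85.6), 4930461G14Rik (72.1), Gm28187 (41.1), 2900097C17Rik (40.6), Gm11216 (37.7) and Gm10076 (36.1). Within this order Malat1, Gm47223 and Gm26917 lay closer to each other than the spread between replicates, as did Gm28187, 2900097C17Rik, Gm11216 and Gm10076.

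**Figure D1:**
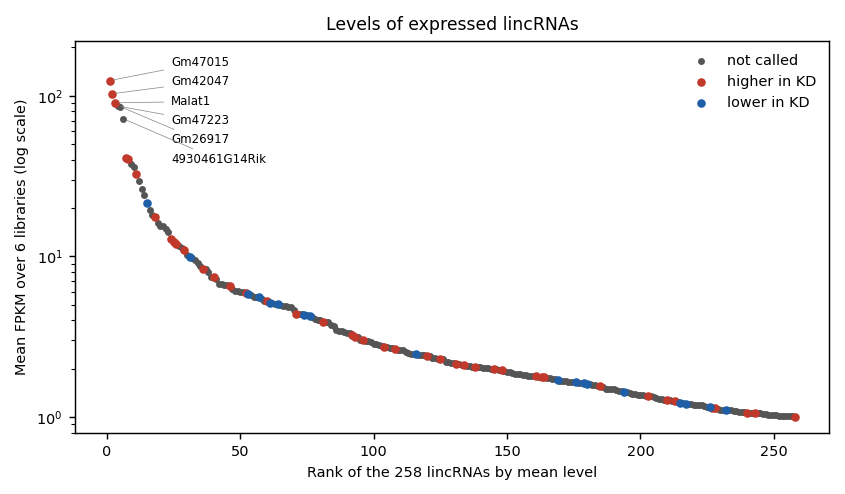
Mean level of each of the 258 lincRNAs over the 6 libraries (FPKM, log scale) against its rank, coloured by its call between KD and NC. A few genes near 100 FPKM lead a long tail, and 115 genes lie between 1 and 2 FPKM.

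As a group the lincRNAs took up more of the reads in KD. They held 0.385%, 0.385% and 0.410% of reads in the NC libraries and 0.494%, 0.476% and 0.481% in the KD libraries, with no overlap between the groups. Their summed level was 1522, 1526 and 1574 FPKM in NC and 1936, 1800 and 1796 FPKM in KD. The 6 highest genes supplied 31.1% to 34.9% of that sum in each library, and without them the sums were 1043 to 1051 FPKM in NC and 1169 to 1278 FPKM in KD. In bulk RNA such as this, more cells of a kind and more RNA per cell cannot be told apart.

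Single genes were compared with limma on log2(FPKM + 1) over all 12299 genes averaging at least 1 FPKM, and a gene was called at a Benjamini-Hochberg adjusted p under 0.05; differences below are KD minus NC on this log2 scale, which understates changes of low genes. Of the 258 lincRNAs 60 were called (23.3%), near the 24.5% of all genes tested. By direction, 42 were higher in KD (16.3%, background 10.9%) and 18 were lower (7.0%, background 13.6%). Without KD1 the higher share did not exceed that of all genes: 45 members were higher (17.4%, all genes 20.9%) and 26 lower (10.1%, all genes 21.5%). All 3 KD values lay above all 3 NC values for 70 of them (background 21.3%) and below for 31 (background 22.9%). The median difference was 0.12, against 0.01 over all genes tested, and 168 of the 258 had a positive difference. Among the 218 that reached 1 FPKM in both groups, 29 were higher (13.3%) and 12 lower (5.5%), with a median of 0.11. Only 15 of the 258 differed by 1 or more, and all of those were called. By level, 12.2% of the 115 members from 1 to under 2 FPKM were higher and 7.83% lower, where all genes in that range gave 7.16% and 8.12%. From 2 to under 5 FPKM the members' shares were 15.2% and 3.8% of 79, against 10.9% and 9.53% of all genes. They were 20.4% and 10.2% of 49 from 5 to under 20 FPKM, against 12.4% and 13.8%. At 20 FPKM and above 6 of 15 were higher and 1 lower, against 10.6% and 19.9% of all genes. The counts depended on single libraries. They fell to 25 higher and 12 lower without KD2 (9.69% and 4.65%, all genes 4.82% and 7.99%). Without NC1 they were 26 and 11 (10.1% and 4.26%, all genes 5.08% and 7.59%), and without NC2 27 and 14 (10.5% and 5.43%, all genes 4.80% and 7.5%).

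**Figure D2:**
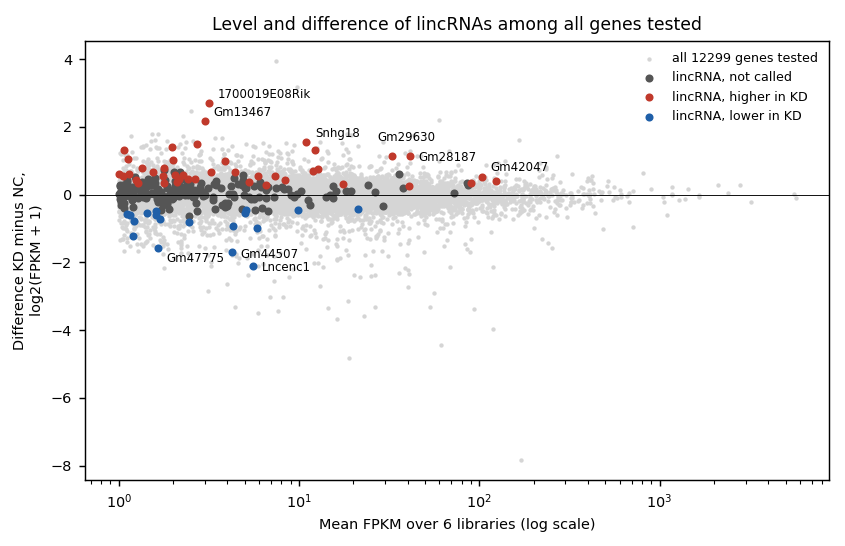
Difference KD minus NC on the log2(FPKM + 1) scale against the mean FPKM (log scale) for all 12299 genes tested (light points) and the 258 lincRNAs (dark points, coloured where called). The extremes among the lincRNAs are 1700019E08Rik at 2.69 and Lncenc1 at -2.10.

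The largest rise was that of 1700019E08Rik, from near silence. It read 0.375, 0 and 0 FPKM in NC (5 reads in all) and 5.73, 6.55 and 6.34 FPKM in KD (267 reads), a difference of 2.69 ± 0.15 (SE, adjusted p = 0.00011). Gm13467, on the other strand of the same stretch of chromosome 2, read 0.443, 0 and 0.898 FPKM in NC (6 reads) and 7.69, 5.59 and 3.37 FPKM in KD (82 reads), a difference of 2.17 ± 0.31 (adjusted p = 0.0044). The groups did not overlap for either gene. Their positions on mm10 are chr2:45696605-45698447 (plus) and chr2:45747803-45751684 (minus). Between them and overlapping Gm13467 lies Gm13465 (plus strand, chr2:45733457-45753311), a lincRNA under the 1 FPKM limit with no read in NC and 69 reads in KD. Together the 3 genes had 11 reads in NC and 418 in KD. The nearest tested coding gene is Zeb2, a repressor of epithelial genes, which starts 579210 bases from 1700019E08Rik and read 8.07, 8.32 and 7.68 FPKM in NC and 9.40, 8.39 and 7.32 FPKM in KD. Those values overlapped (difference 0.05, adjusted p = 0.73). The lincRNA Gm13470, farther along at chr2:46419535-46442710, averaged 14.8 ± 3.1 FPKM (SD, n = 3) in either group (adjusted p = 0.995).
The first 150 bases of the longest GENCODE M21 transcript of each gene, shown because they start the 2 RNAs with the largest rises, read as follows.
1700019E08Rik: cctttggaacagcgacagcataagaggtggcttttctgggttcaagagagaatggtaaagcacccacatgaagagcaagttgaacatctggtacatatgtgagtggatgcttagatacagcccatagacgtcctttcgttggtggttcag
Gm13467: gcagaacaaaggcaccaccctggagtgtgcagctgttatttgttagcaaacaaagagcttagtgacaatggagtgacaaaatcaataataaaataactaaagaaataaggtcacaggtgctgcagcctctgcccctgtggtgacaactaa
Reads of Gm13465 and Gm13467 come from opposite strands of overlapping positions, and since the sources used here do not say whether counting used strand, they cannot be told apart.

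Snhg18 showed the largest rise among genes with a named role. It is a host gene whose spliced RNA is left after the snoRNA Snord123 is cut out of it. Snhg18 read 5.20, 5.93 and 4.25 FPKM in NC and 18.3, 15.4 and 16.9 FPKM in KD, 3.29-fold higher (difference 1.55 ± 0.11, adjusted p = 0.00031). The snoRNA itself, too short for this kind of library to measure well, read 0.877, 4.43 and 0 FPKM in NC (6 reads) and 4.57, 7.65 and 2.50 FPKM in KD (18 reads), with overlapping groups and no call (adjusted p = 0.16). Snord123 belongs to the C/D class, which guides methylation of other RNAs and is named for 2 short boxes. Its sequence at chr15:32241853-32241923 (minus strand) is given with the letters ATGATGA of the C box and every CTGA, the D box letters, in capitals.
Snord123: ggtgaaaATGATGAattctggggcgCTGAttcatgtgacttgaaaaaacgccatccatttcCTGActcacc
Sema5a, across the shared start region shown above, read 6.87, 7.16 and 6.93 FPKM in NC and 6.36, 5.47 and 5.21 FPKM in KD, lower in all 3 KD libraries but not called (difference -0.26, adjusted p = 0.053).

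The other large rises started from low or moderate levels, and none of these genes has an established role. Gm29630 read 19.9, 20.3 and 19.5 FPKM in NC and 43.7, 52.3 and 40.7 FPKM in KD (difference 1.15 ± 0.09, adjusted p = 0.00049). Gm28187 read 24.9, 23.6 and 27.1 FPKM in NC and 64.4, 54.0 and 52.5 FPKM in KD (1.14 ± 0.09, adjusted p = 0.00047). Only genes without overlap between the groups were taken for the 10 largest rises. Gm29630 and Gm28187 were the 2 most abundant of these, and each more than doubled. Gm13056 followed at 6.74 ± 2.29 FPKM in NC against 17.8 ± 3.8 in KD (SD, n = 3), with the widest spread in NC of the 3. Gm11454 rose from 0.968 ± 0.493 to 4.51 ± 0.69 FPKM, Gm13264 from 0.603 ± 0.121 to 3.33 ± 0.76, Gm30146 from 0.173 ± 0.217 to 1.96 ± 0.56 and 4930477N07Rik from 0.409 ± 0.308 to 1.85 ± 0.08. These last 4, like 1700019E08Rik and Gm13467, were under 1 FPKM in NC, so they entered the list through KD and had to differ. Snhg18, Gm13056, Gm29630 and Gm28187, at 1 FPKM or more in both groups, each passed the threshold in all 6 fits that left out 1 library.

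**Figure D3:**
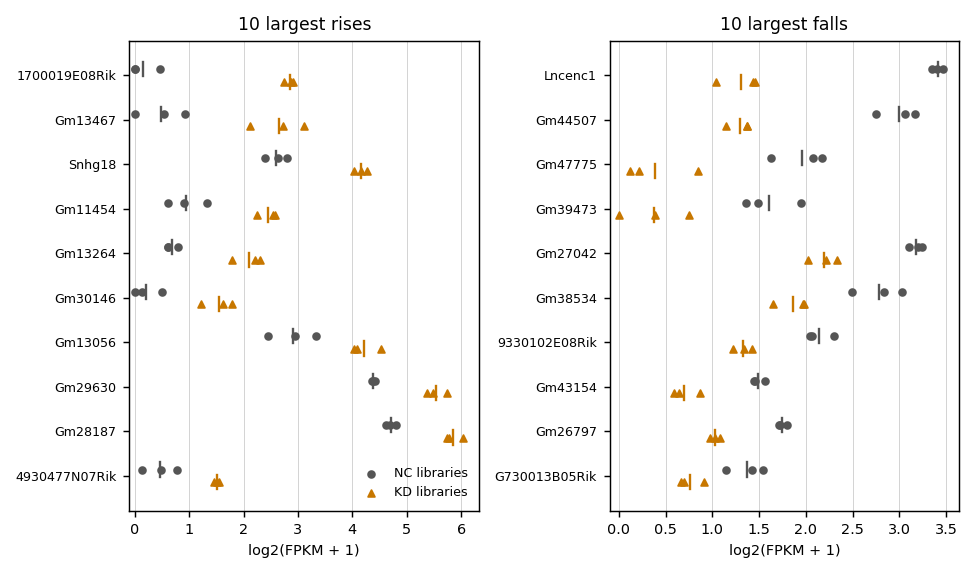
Values of the 10 lincRNAs with the largest called rises (left) and falls (right) in each library on the log2(FPKM + 1) scale, NC as circles and KD as triangles, with a bar at the mean of 3. NC and KD points do not overlap for any of the 20, because only genes without overlap were taken for this list.

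Lncenc1 led the falls. First described as an RNA of embryonic stem cells, it read 9.60, 10.1 and 9.17 FPKM in NC and 1.70, 1.74 and 1.06 FPKM in KD, 6.41-fold lower (difference -2.10 ± 0.12, adjusted p = 0.00013). Gm44507 read 7.99, 7.34 and 5.70 FPKM in NC and 1.58, 1.58 and 1.21 FPKM in KD, 4.82-fold lower (-1.70 ± 0.13, adjusted p = 0.00035). In both, every KD value was far under the lowest NC value. Gm47775 fell from 2.09, 3.22 and 3.50 FPKM to 0.158, 0.794 and 0.0864 FPKM (-1.57 ± 0.24) and Gm39473 from 2.86, 1.57 and 1.81 FPKM to 0.311, 0 and 0.679 FPKM (-1.22 ± 0.24). Gm27042, Gm38534 and 9330102E08Rik were each close to 2.25-fold lower, at 8.06, 5.96 and 3.41 FPKM in NC and 3.58, 2.66 and 1.51 FPKM in KD. Gm43154 (1.80 to 0.627 FPKM), Gm26797 (2.35 to 1.04) and G730013B05Rik (1.60 to 0.697) completed the 10 largest falls. Gm47775, Gm39473, Gm43154 and G730013B05Rik were under 1 FPKM in KD, so they entered the list through NC and had to differ. Lncenc1, Gm44507, Gm27042, Gm38534, 9330102E08Rik and Gm26797, at 1 FPKM or more in both groups, each passed the threshold in all 6 fits that left out 1 library. The call of G730013B05Rik was lost, with an adjusted p of up to 0.093 when KD2, KD3, NC1 or NC3 was left out. Gm43154 and Gm26797 overlap exons of other genes on the opposite strand over 2.2% and 6.5% of their exons.

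The 15 lincRNAs at 20 FPKM and above had a median difference of 0.28. Gm47015 read 110, 106 and 104 FPKM in NC and 149, 137 and 139 FPKM in KD (difference 0.40 ± 0.06, adjusted p = 0.0039), and Gm42047 read 82.0, 83.6 and 85.8 FPKM and then 121, 126 and 119 FPKM (0.54 ± 0.05, adjusted p = 0.00088). Both rose with no overlap and passed in each of the 6 fits that left out 1 library. Malat1 read 73.0, 75.2 and 89.4 FPKM in NC and 106, 92.5 and 106 FPKM in KD (0.36 ± 0.10, adjusted p = 0.039). Its call held without NC3 but not without any of the other 5 libraries, where the adjusted p reached 0.14. 2900097C17Rik, the mouse counterpart of NORAD, an abundant cytoplasmic RNA that binds Pumilio proteins, read 37.7, 34.7 and 38.5 FPKM in NC and 41.4, 45.6 and 45.9 FPKM in KD (0.25 ± 0.07, adjusted p = 0.038). That call held without KD1 and was lost without each other library (adjusted p up to 0.14). 4930461G14Rik (71.0 and 73.1 FPKM) and Gm11216 (34.5 and 40.9) had overlapping groups.

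The remaining abundant genes were not called, although all 3 KD values lay above all 3 NC values. Gm47223 stood at 77.8 ± 7.7 FPKM in NC against 94.9 ± 11.6 in KD (adjusted p = 0.10). The values of the other two are uncertain for another reason. Gm26917, at 75.6 ± 10.2 FPKM in NC against 95.6 ± 7.2 in KD (adjusted p = 0.061), ends 12 bases from CT010467.1, a ribosomal RNA gene on chromosome 17. Gm10076, at 28.6 ± 8.0 and 43.5 ± 4.6 FPKM (adjusted p = 0.062), matches Rpl41, a ribosomal protein gene at 608 FPKM, over 99.7% of its transcript with 99.3% identity, so how reads were divided between the 2 decides its value. In all, 12 of the 258 had such a near-identical coding transcript over at least 50% of their length, and of these none was higher and 1 lower. Exons of 72 members overlapped those of another gene, 55 on the other strand and 26 on the same strand. Of these 72, 6 were higher (8.33%) and 4 lower (5.56%). The 186 without any overlap had 36 higher (19.4%) and 14 lower (7.53%) and a median difference of 0.16. Over all genes tested the shares were 10.9% and 13.6%.

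Most lincRNAs with established roles were not called, as was true of most of the 258 (23.3% called) and of all genes tested (24.5% called). Malat1 and 2900097C17Rik, described above, were called higher. Of the 5 snoRNA hosts among the 258, Snhg18 rose and Snhg6 fell. Snhg12 (5.30 and 6.64 FPKM), Snhg20 (2.86 and 3.44) and Epb41l4aos (9.63 and 9.24) were not called. Snhg6, the host of Snord87, read 11.03, 13.67 and 10.02 FPKM in NC and 8.82, 7.74 and 7.89 FPKM in KD (difference -0.45 ± 0.11, adjusted p = 0.031). Its call was lost without KD2, KD3, NC1 or NC2 (adjusted p up to 0.11). Without KD1, the library that stood apart, Snhg12 (adjusted p = 0.016) and Snhg20 (0.024) were called higher. Neat1 read 15.7, 15.7 and 16.5 FPKM in NC and 12.6, 15.4 and 17.1 FPKM in KD, with overlapping groups (adjusted p = 0.56). Pvt1, the neighbour of Myc, read 4.23, 4.33 and 4.28 FPKM in NC and 3.94, 3.46 and 3.07 FPKM in KD, all 3 lower but not called (adjusted p = 0.093; 0.015 without KD1). Ftx (2.13 and 2.23 FPKM) and Jpx (0.975 and 1.10), RNAs of the X inactivation centre, and Ptgs2os2 (1.86 and 1.75), beside the prostaglandin synthase gene Ptgs2, had overlapping groups. None of the genes on a list of imprinted clusters was among the 258, and Meg3 and Mirg had no read at all.

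Of the 258 genes, 11 span 33 RefSeq mature microRNAs. The libraries do not measure mature microRNAs, so only the hosts are given. The sequences below are shown because Mir17hg, host of a cluster that promotes cell growth, carries members that share a seed, and because AL805899.1, which spans miR-31, was the most abundant of these hosts; bases 2 to 8, the seed that pairs with targets, are in capitals.
miR-17-5p: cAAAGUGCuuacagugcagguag
miR-20a-5p: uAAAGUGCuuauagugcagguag
miR-19a-3p: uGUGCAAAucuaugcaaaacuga
miR-19b-3p: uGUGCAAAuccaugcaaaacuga
miR-18a-5p: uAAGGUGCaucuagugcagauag
miR-92a-3p: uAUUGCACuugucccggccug
miR-31-5p: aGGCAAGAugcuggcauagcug
The first pair share the seed AAAGUGC and the second pair the seed GUGCAAA. Mir17hg read 1.13, 1.71 and 1.25 FPKM in NC and 0.948, 0.615 and 0.802 FPKM in KD, lower in all 3 KD libraries but not called (difference -0.40 ± 0.14, adjusted p = 0.087). Mir17hg was under 1 FPKM in KD, so it entered the list through NC and had to differ. AL805899.1 stood at 15.5 FPKM in NC against 16.8 in KD (adjusted p = 0.65). Mir155hg (1.21 and 1.61 FPKM) and Mir142hg (3.34 and 4.06), hosts of microRNAs known from immune cells, had overlapping groups.

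Coding genes near the lincRNAs were examined because many lincRNAs share a start region or a domain with a neighbour. For each lincRNA the nearest tested protein-coding gene was taken, at a median distance of 20268 bases, and 211 pairs lay at most 100 kb apart, with 196 distinct neighbours. Of these neighbours 21 were higher and 38 lower (30.1% called, against 26.1% of tested protein-coding genes and 24.5% of all genes tested). Both genes of a pair were called in the same direction in 11 pairs, 4 higher and 7 lower, and in opposite directions in 2. In 37 pairs the lincRNA was called and the neighbour was not, and in 49 the reverse. The differences of the 2 genes were weakly related across the 211 pairs (Pearson r = 0.20, Spearman rho = 0.22), as a description only, since all pairs come from the same libraries and some share a neighbour. At most 20 kb apart there were 128 pairs, with 7 called in the same direction and none in opposite directions. The number of pairs called in the same direction ranged from 3 without NC1 or NC2 to 23 without KD1, and was 4 without KD2 and 5 without NC3.

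The pairs that rose together were Gm29630 with Klhdc8a, 2010320M18Rik with Pik3r2, Gm43703 with Lfng and Gm16046 with Afdn. Klhdc8a, 18215 bases from Gm29630, stood at 0.847 ± 0.113 FPKM in NC against 1.66 ± 0.29 in KD (adjusted p = 0.025). 2010320M18Rik read 0.494, 1.19 and 1.56 FPKM in NC and 2.89, 2.63 and 1.99 FPKM in KD, and Pik3r2 24.3 ± 0.5 and 35.1 ± 5.7 FPKM (adjusted p = 0.023). These 2 share the start region printed above, and the lincRNA's call was lost without KD1, KD2, NC1 or NC2 (adjusted p up to 0.12). Gm43703 starts 769 bases from Lfng, a glycosyltransferase gene that modifies Notch receptors, and read 1.47, 1.40 and 1.41 FPKM in NC and 3.40, 2.22 and 2.40 FPKM in KD, while Lfng stood at 15.7 ± 1.2 and 21.2 ± 1.9 FPKM. Its call was lost without NC1, NC2 or NC3 (adjusted p up to 0.076). Gm16046 (0.580 and 1.43 FPKM) lies 77023 bases from Afdn, a gene of cell junctions (10.6 and 12.8 FPKM), and was lost without KD2 or any NC library (up to 0.081). Gm16046 and the coding gene Klhdc8a were under 1 FPKM in NC, so they passed the filter through KD and had to differ.

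The pairs that fell together included 2 in which the genes overlap. Gdap10 lies within the span of Nampt, the gene of the NAD salvage enzyme, on the same strand, and read 6.72, 6.41 and 5.42 FPKM in NC and 4.24, 3.63 and 3.78 FPKM in KD. Nampt stood at 125 ± 6 FPKM in NC and 71.0 ± 9.9 in KD (difference -0.81, adjusted p = 0.0027). Reads of the far more abundant Nampt could fall within Gdap10, and their part in the result was not tested. Gm15834 overlaps Fam126b on the other strand (2.06 to 1.17 FPKM, and 3.27 to 2.24 FPKM for the coding gene), and its call held only without KD1 among the 6 fits that left out 1 library (adjusted p up to 0.12). Gm27042 starts 972 bases from Aldh18a1, an enzyme gene of proline synthesis that fell from 64.3 ± 0.9 to 54.7 ± 1.3 FPKM (adjusted p = 0.017). Gm26797 lies 1446 bases from Ano10 (14.2 to 9.83 FPKM, adjusted p = 0.0019), 9330102E08Rik 26110 bases from Tspan9 (20.02 to 13.4), Gm38534 41861 bases from Mrps23, a gene of the mitochondrial ribosome (33.7 to 26.2), and Snhg6 80483 bases from Cops5, a subunit gene of the COP9 signalosome (25.9 to 18.5).

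Opposite directions were seen for Gm30146 and 2900097C17Rik. Gm30146 rose from 0.173 to 1.96 FPKM, 71435 bases from Axl, a receptor tyrosine kinase gene that fell from 24.4 ± 0.2 to 17.2 ± 2.2 FPKM (difference -0.49, adjusted p = 0.011). 2900097C17Rik rose 27930 bases from Epb41l1, which fell from 31.9 ± 0.5 to 23.8 ± 1.2 FPKM (-0.41, adjusted p = 0.0037).

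**Figure D4:**
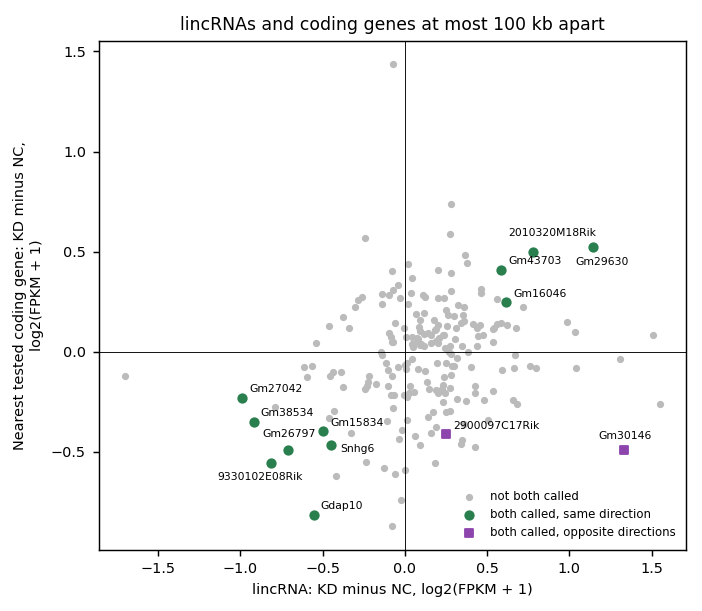
Difference of the nearest tested coding gene against that of the lincRNA, KD minus NC on the log2(FPKM + 1) scale, for the 211 pairs at most 100 kb apart. The 11 pairs called in the same direction (circles) and the 2 called in opposite directions (squares) carry the lincRNA's name, and most other points scatter around 0 on both axes.

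In 31 of the 258 the start of a coding gene lay within 1000 bases on the other strand. Of these 7 were higher (22.6%) and 2 lower (6.45%), with a median difference of 0.28. The other 227 had 35 higher (15.4%) and 16 lower (7.05%) and a median of 0.10. Over all genes tested the shares were 10.9% and 13.6%. Snhg18 differed most among the 31, followed by Gm27042, 2010320M18Rik and Gm43703. 5031425E22Rik, 172 bases from Kmt2e, a gene of a chromatin regulator, read 7.40, 6.55 and 6.95 FPKM in NC and 9.89, 9.71 and 9.73 FPKM in KD (0.44 ± 0.06, adjusted p = 0.0040). Gm17586 beside Mafg (adjusted p = 0.30) and Gm12319 beside Eno3 (0.24) were not called. KD1 read 3.45 FPKM of Gm17586 where the other KD libraries read 5.85 and 6.51, and 2.42 FPKM of Gm12319 where they read 5.24 and 4.80. Without KD1 the adjusted p was 0.0061 and 0.0055. Gm11110, 4632404H12Rik, C030037D09Rik, Gm7160 and 4930516B21Rik, the other abundant ones, lay between -0.06 and 0.31 and were not called.

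Calls were counted by chromosome beside those of all genes there, with no test of the difference between chromosomes. Chromosome 5 held 26 members with 9 higher and 1 lower (median 0.28). Of all genes tested there, 11.0% were higher and 9.91% lower, with a median of 0.03. On chromosomes 17 and 8, 4 of 18 and 4 of 12 were higher and none lower. There 22.8% and 22.7% of all genes were higher and 3.83% and 3.52% lower, with medians of 0.17 on both. On chromosome 6, 2 of 12 members were higher and 2 lower, where 4.18% of all genes were higher and 34.3% lower (median -0.22). Chromosome 1 had 3 of 21 members higher and 2 lower, where 4.63% of all genes were higher and 29.6% lower (median -0.15). Chromosome 10 had 2 of 17 higher and none lower, where 3.36% of all genes were higher and 31.9% lower (median -0.19). With each chromosome's median shift removed from each library, a calculation added after the data were seen, 37 members were higher (14.3%, all genes 9.65%). In that fit 17 were lower (6.59%, all genes 11.0%). Of these, 31 and 16 were called in both fits. In all, 41 members lay in 19 clusters of neighbouring members at most 100 kb apart, and the pair of 1700019E08Rik and Gm13467 was the only cluster with 2 called members.

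The spread between replicates of the lincRNAs was set beside what counting alone gives. Their median SD over mean was 14.7% in NC, against 14.1% from counting, and 16.6% in KD, against 12.3%. It was more than 2 times the counting value for 31 of the 258 in NC and for 79 in KD. A chi-square per degree of freedom over the members' reads, which counting alone would put at 1, was 1.97 to 3.42 between pairs of NC libraries and 2.68 to 6.07 between pairs of KD libraries. Over the reads of all genes tested this chi-square value was 2.37 to 3.40 between NC pairs and 4.89 to 33.7 between KD pairs. The median SD over mean of all genes tested was 5.33% in NC and 11.1% in KD, with 4.29% and 4.10% from counting. Without KD1 the KD values were 10.9% for the lincRNAs and 5.10% for all genes. From 1 to under 2 FPKM the lincRNAs' spread in NC was 21.1%, and at 20 FPKM and above it was 8.86%. The largest spreads were those of genes with few reads. In NC these were 1700019E08Rik, Gm30146, Gm13467 and Gm44734, the last at 0.263, 1.86 and 0.532 FPKM. In KD they were Gm47775, Gm12336 (1.01, 0.375 and 4.22 FPKM), Gm39473 and Gm47972 (0.253, 0.987 and 1.52 FPKM). The largest difference without a call was 0.72.

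**Figure D5:**
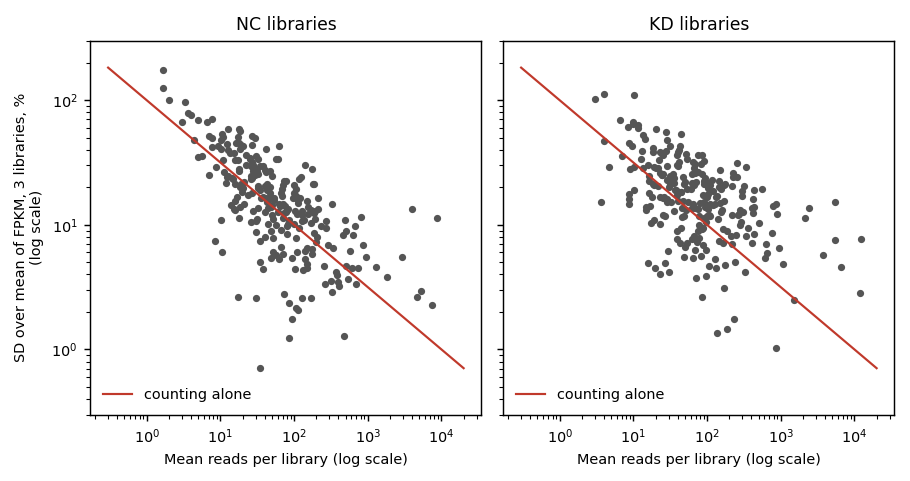
SD over mean of FPKM among the 3 libraries of each group (percent, log scale) against mean reads per library (log scale) for the 258 lincRNAs, with the line that counting alone gives. The median is 14.7% in NC against 14.1% from counting and 16.6% in KD against 12.3%, and 31 points in NC and 79 in KD lie more than 2 times above their counting value.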

How the data were processed

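Total RNA of 6 libraries was sequenced from both fragment ends and mapped with HISAT2 2.0.5, per the labels' protocols, to mm10, per the submitters' processing notes. The sources used here do not give the tool that counted reads, whether it used strand, or the gene annotation. FPKM values were deposited by the authors with gene positions, biotypes and lengths. FPKM times length came in whole multiples of 1 step per library for 100% of values (tolerance 0.01 reads), so reads per gene were recovered. No per-sample column was left unused (0).

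Genes averaging at least 1 FPKM were tested with limma 3.58.1 (R 4.3.3) on log2(FPKM + 1), empirical Bayes with an intensity trend, Benjamini-Hochberg adjustment over 12299 genes and a threshold of 0.05. The fit was tested on simulated data. Overlaps, hosted small RNAs and transcript matches used GENCODE M21 (258 of 258 identifiers found, 253 at the same coordinates) and promoters and microRNAs RefSeq. Named genes were the 10 highest, the 10 largest called rises and falls without overlap, members of known-role lists, the most variable genes, those at the limit, called neighbour pairs, members beside a coding start and low lincRNAs called without the filter. Gm32618 and AL805899.1 were named outside this rule, after their values were seen. The members and lists were chosen with earlier results of these data known. Alternatives covered pseudocounts, filters, scalings, voom on the recovered reads, a GC and length correction, the replicate block and leaving out each library.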

Additional observations from a re-analysis of the deposited data

How the results depend on the processing

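No called lincRNA named here reversed its direction under any alternative run. A group of 21 lincRNAs was higher and 11 lower in every fit that kept the genes from 1 FPKM. Some of these, such as 1700019E08Rik and Gm47775, were under 1 FPKM in 1 group, so they had to differ to be selected. The share of all genes called in every fit was not counted. With a filter of 5 FPKM, which left 64 lincRNAs, 16 were higher (25%, all genes 12.6%) and 6 lower (9.4%, all genes 16.9%). That fit gave 3 neighbour pairs called in the same direction. With no filter, which tests more genes, 26 were higher (10.1%, all genes 3.51%) and 14 lower (5.43%, all genes 5.37%). Without the filter there were 6 pairs in the same direction and 1 in opposite directions. With a GC and length trend removed, 22 pairs were called in the same direction and 7 in opposite directions, and the lincRNAs called were 56 higher (21.7%, all genes 19.4%) and 20 lower (7.75%, all genes 18%). With chromosome medians removed, the pairs were 7 and 1. Pairs in opposite directions were 1 without the intensity trend and 5 by voom on the recovered reads, and at 20 kb the pairs were 7 and 0; the cause was not tested. Leaving out each library in turn gave 25 to 45 higher, 11 to 26 lower, medians of 0.09 to 0.14, 3 to 23 pairs in the same direction and 1 to 5 in opposite directions. The median spread in KD was 10.9% without KD1. Same-numbered libraries correlated at 0.08, -0.04 and 0.15 in their deviations, so the numbers were not taken to pair the samples, and not every library correlated best with its own number. With the replicate block in the fit, 34 lincRNAs were higher (13.2%, all genes 8.54%) and 15 lower (5.81%, all genes 11.2%). The median was then 0.12, with 7 pairs in the same direction and 1 in opposite directions. Depth limits the low lincRNAs most, as few reads widen their spread.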

Other observations

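LincRNAs under the 1 FPKM limit also differed between the groups. In a fit without a filter, 42 of 1861 were called (17 higher, 25 lower), 2.26% against 8.88% of all genes in that fit. The largest differences were those of Gm13465, with no read in NC and 69 in KD, Gm32219 (23 and 118 reads), 2310003N18Rik (0 and 18), BC049987 (3 and 59), 4930520P13Rik (22 and 4) and Gm8883 (88 and 28). Gm32618, a lincRNA in the wider region of Snhg18 on chromosome 15, rose from 3.22, 3.40 and 2.84 FPKM to 5.39, 5.66 and 5.89 FPKM (adjusted p = 0.0018).

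Other noncoding classes are read against all genes tested, of which 10.9% were higher and 13.6% lower with a median of 0.01. The 213 antisense genes had 22 higher (10.3%) and 8 lower (3.76%), with a median of 0.17. The 110 processed transcripts had 15 higher (13.6%) and 7 lower (6.36%), with a median of 0.09. The 121 genes of the deposited biotype TEC had 8 higher (6.61%) and 11 lower (9.09%), with a median of 0.01. Among snoRNA hosts of other biotypes, Snhg8 (8.12 to 18.4 FPKM, adjusted p = 0.0055), Gas5 (6.54 to 8.59, 0.026) and Snhg5 (14.5 to 17.8, 0.046) rose. Peg13 (6.91 to 9.73 FPKM, 0.0024) and Airn (1.18 to 2.02, 0.028), noncoding RNAs of imprinted clusters, rose as well. Gm13822, an antisense gene on the interferon and inflammation list, fell (4.06 to 0.734 FPKM, 0.0079). All other tested genes of other biotypes on the known-role lists were not called. Among them were the snoRNA hosts Snhg1, Snhg4, Snhg15, Snhg17, Zfas1 and Dancr. Snhg8 and Peg13 passed in each fit that left out 1 library. Gas5 was lost without KD2 or any NC library (adjusted p up to 0.10), Snhg5 without KD3 or any NC library (up to 0.15) and Airn without each library but KD1 (up to 0.095).

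Of 26 tested genes that degrade or handle noncoding RNA in general, 7 were lower and none higher, with a median of -0.13. Over all genes the median was 0.01 and 13.6% were called lower. At an unadjusted p under 0.05 in the same limma fit, 4 genes of the list were higher and 9 lower. By voom on the recovered reads, 1 was called higher and 7 lower. Among the 7 called lower by limma were Dis3, a catalytic subunit gene of the RNA exosome (19.7 ± 1.4 to 12.5 ± 0.9 FPKM, adjusted p = 0.0030), Exosc1, Exosc8 and Exosc9 of its core, and Skiv2l2 and Zfc3h1 of its nuclear cofactors. Dis3 passed in each of the 6 fits that left out 1 library, while those other 5 were lost without KD2, NC1 or NC2 (adjusted p up to 0.093). Of the whole list, 2 were lower without KD2, NC1 or NC2. Without KD1 it had 3 higher and 8 lower. After correction for GC and length it had 4 higher and 9 lower. Equal totals, quantile normalization and the filter of 5 FPKM each gave 1 higher and 7 lower. None of 14 genes of paraspeckle and nuclear speckle proteins was called by limma (3 higher and 0 lower at an unadjusted p under 0.05) or by voom on the recovered reads. After correction for GC and length 2 were called higher and 1 lower, and with quantile normalization 2 were called higher. Without KD1, 3 were called higher, among them Hnrnpm (adjusted p = 0.0045) and Rbm14 (0.0037).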
